A study of Mus musculus with 6 samples.

Results

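The genes described here encode the T cell receptor complex and the proteins that act directly beneath it. They were chosen by symbol from a list of 40 genes, of which 39 were measured among 18193 genes on the arrays; Lck was not analysed here. By the roles usually ascribed to their products, 23 of the measured members promote receptor signalling, 12 restrain it, and 4 (Cd6, Ptprc, Themis and Trat1) have been described as doing both. The series examined T-cell acute lymphoblastic leukaemia (T-ALL) in mice of genotype Notch1[delta]E mycGFP, so every sample carried an activated form of Notch1 and a GFP reporter of Myc. Splenocytes positive for CD25, the interleukin 2 receptor alpha chain, were collected from C57BL/6 mice aged 12 weeks, 4 weeks after transplantation into congenic recipients, and were sorted by mCherry and GFP. Both sorted groups, MycGFP negative and MycGFP positive, held 3 arrays numbered 1 to 3, from 3 independently derived leukaemias according to the design. No group of normal T cells or of cells without Notch1[delta]E was included. Neither labels nor design name a cell type in which expression of Notch1[delta]E was driven. The comparison asked how transcripts of the T cell receptor pathway differed between leukaemia cells with and without Myc reporter signal.

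The T cell receptor has no enzyme of its own. Its antigen-binding chains are held by the CD3 delta, epsilon and gamma chains and by the zeta chain (Cd247), whose cytoplasmic tails are phosphorylated by the Src family kinases LCK and FYN. The kinase ZAP70 docks on the phosphorylated tails and marks the adaptors LAT and SLP76 (Lcp2), on which phospholipase C gamma 1, VAV1 and TEC family kinases gather. The lipid product diacylglycerol then recruits RasGRP1 and protein kinase C theta, calcium release activates NFAT, and phosphatases, ubiquitin ligases and diacylglycerol kinases bring the signal down. Immature thymocytes need the same machinery below the pre-T cell receptor, and T-ALL cells often resemble such stages.

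All values are linear intensities of single probe sets, the short probe groups by which these arrays report a transcript; 1 probe set stood for each gene, that with the highest mean. The median intensity of the arrays was 30.5 to 32.7, and all 39 members lay above it on all 6 arrays. Across genes, Pearson's r of log2 intensities was 0.969 to 0.977 within the negative group, 0.979 to 0.989 within the positive group and 0.952 to 0.972 between them. Of 5 markers of the sorted leukaemia cells, none called (limma), Il2ra lay between 5396 and 10857 and Ptcra, the pre-T cell receptor alpha chain, between 6526 and 8645, and Thy1 and Notch1 were at 7864 or more. All 5 had log2 differences below 0, as did 48.4% of all genes, with a median of -0.17 against 0.01 for all genes. In 2 of the 5, Thy1 (8796 to 9189 against 7870 to 8313) and Cd7, positive values all lay below negative ones, as in 11.2% of all genes. Cd7 was at 113 to 188 in negative and 41.3 to 108 in positive cells, without overlap and with an unadjusted p under 0.05. None of the 32 measured markers of B, myeloid, dendritic, natural killer or erythroid cells was called by the test (limma). An unadjusted p under 0.05 was found for 4, Blk and Gzma being higher and Klrd1 and Alas2 lower. Of all genes, 14.7% were higher and 7.35% lower at that level. With the array number as a block 4 of the 32 were called, where 5.75% of all genes rose and 1.95% fell. The B cell gene Blk rose (limma, adjusted p = 0.0339). Klrd1, the B cell gene Cd79b and the myeloid gene S100a9 fell (adjusted p = 0.0410, 0.0452 and 0.0482). Ighm, the brightest B cell marker, lay between 1353 and 3266. The summed intensity of 9 myeloid markers was 10444 and 2673 on negative and positive array 2, and 192 to 1045 on the other arrays. Proliferation genes moved with the sort: Mcm5 and Pcna of 9 rose, with a summed level of 9211 to 28170 in negative cells and of 33809 to 40281 in positive cells. Of 6 natural killer cell genes, Gzma made up most of the sum (4959 to 5493 in negative, 5779 to 8040 in positive cells) and was higher in positive cells, at 4447 to 4989 against 5548 to 7836, while the other 5 had differences below 0; Klrd1 was at 101 to 317 against 21.2 to 92.5. Klrk1, Ncr1 and Eomes were below the median of the arrays throughout. In sorted bulk cells fewer cells of a type and less RNA per cell cannot be told apart. The part of proliferation, natural killer, myeloid or B cell transcripts in the results was not tested.

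Members of the pathway were mostly lower in MycGFP positive cells, and 4 of them fell: the diacylglycerol kinase gene Dgka 2.88-fold, the TEC family kinase gene Txk 3.33-fold, the inhibitory receptor gene Cd5 1.57-fold and Themis, a regulator of thymic selection, 1.55-fold. These 4 make 10.3% of the 39 members, where 1.51% of all genes fell, as did 2.57% of the 9289 genes above the array median on all arrays. The list was chosen with earlier results of these data known, so the shares given here describe it and do not test it. No member rose (limma), nor was any higher at an unadjusted p under 0.05, where 14 (35.9%) were lower; 4.62% of all genes rose, 6.13% were called in either direction, and at an unadjusted p under 0.05 14.7% were higher and 7.35% lower. With the array number as a block 3 members fell (Dgka, Txk and Tec) and none rose, against 1.95% and 5.75% of all genes; Cd5 and Themis were then not called. The log2 difference was below 0 for 34 members, or 87.2%, against 48.4% of all genes and 42.1% of those above the array median, and the median was -0.34 against 0.01 for all genes. In 19 members (48.7%) the 3 positive values all lay below the 3 negative ones, a pattern found in 11.2% of all genes and in 13.7% of those above the array median. None had the opposite pattern, seen in 17% of all genes, so that 28.1% of all genes had separated groups. Centring each array on its median took the median of all genes to -0.14 and left 37 members and 65.7% of all genes below 0, with 502 genes higher and 381 lower in place of 840 and 275. The 4 calls depended on single arrays: without positive array 2 no member and no gene passed (limma), although 13 members were lower at an unadjusted p under 0.05, as were 976 of all genes, with 2209 higher. Since the samples are said to be separate leukaemias only in the design, the p-values speak for the spread among these 6 arrays.

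**Figure D1:**
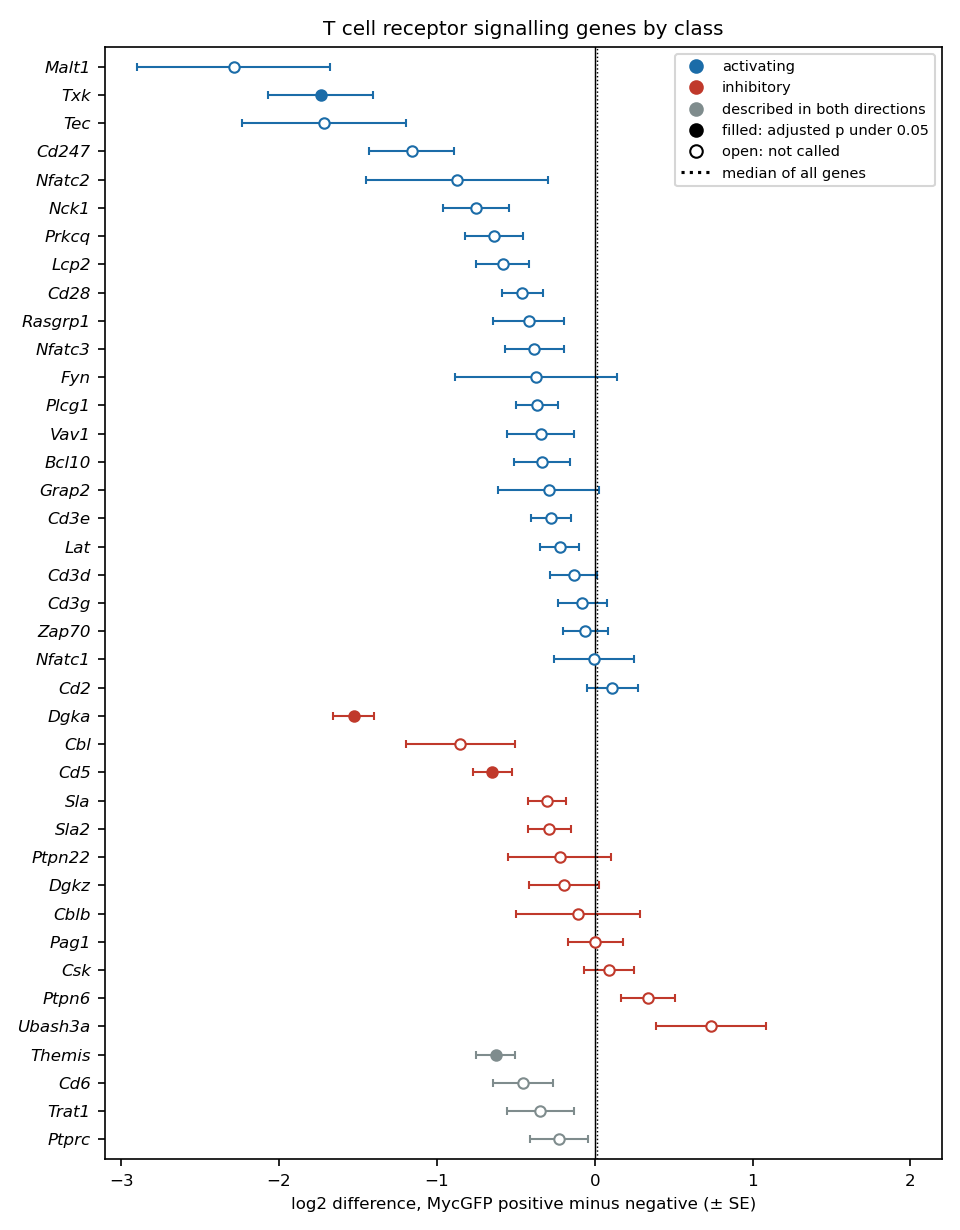
Log2 difference between MycGFP positive and negative cells (horizontal axis, bars show the SE) for the 39 measured members, grouped as activating, inhibitory or described in both directions. Filled points are Dgka, Txk, Cd5 and Themis, the genes with an adjusted p under 0.05; the dotted line is the median of all genes, 0.01, and 34 points lie left of 0.

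Dgka encodes an enzyme that removes diacylglycerol and thereby limits RasGRP1 and protein kinase C theta. Its intensity was 2086, 1961 and 1741 on the negative and 688, 681 and 637 on the positive arrays. The groups lay far apart, with little spread among the positive arrays. The fitted log2 difference came to -1.53 (SE 0.13, limma adjusted p = 0.0103), and by p-value Dgka ranked 26 among 18193 genes. Only without positive array 2, among single arrays left out, was the call lost (adjusted p = 0.0591, log2 difference -1.54); without both arrays numbered 2 the log2 difference was again -1.53 (adjusted p = 0.201). Dgkz, the other diacylglycerol kinase among the members, measured 1218, 1129 and 1190 on negative and 1393, 1005 and 781 on positive arrays. Its groups overlapped, and its difference of -0.19 with an SE of 0.22 was not called (adjusted p = 0.704).

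Txk encodes a T cell kinase of the TEC family that phosphorylates phospholipase C gamma 1. Its probe set gave 231, 247 and 197 in negative cells and 112, 57.5 and 47.2 in positive cells. Every positive array was lower, and positive array 1 stood closest to the negative ones. The fitted log2 difference came to -1.74 (SE 0.33, limma adjusted p = 0.0395). The call held without positive array 1 (adjusted p = 0.0331) and was lost without any of the other arrays, at adjusted p of 0.0713 without negative array 3, 0.0805 without negative array 1, 0.1003 without positive array 3, 0.118 without negative array 2 and 0.133 without positive array 2. With 32 added to each intensity before the logarithm, which damps low values, the difference was -1.35 (adjusted p = 0.0513).

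Cd5, a surface receptor that dampens the signal in proportion to its strength in thymocytes, measured 772, 731 and 716 on negative arrays. On positive arrays it measured 470, 515 and 434. The fitted log2 difference came to -0.65 (SE 0.13, limma adjusted p = 0.0411). Themis, whose product binds GRB2 and the phosphatase SHP1 and is needed for thymocytes to pass selection, gave 6109, 6522 and 6554 against 4008, 4463 and 3952. Its difference was -0.63 with an SE of 0.12 (adjusted p = 0.0397). Both genes had groups with little inner spread and no overlap. Both calls were nonetheless lost without any one of the 6 arrays, at adjusted p of 0.0764 to 0.1275 for Cd5 and 0.06645 to 0.1272 for Themis. With the array number as a block both had adjusted p = 0.0634, and Cd5 also missed the threshold under a trended and robust variance (adjusted p = 0.108).

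The upstream sequences of these 4 genes are shown because they are the members called in the main fit. The sequences run 5′ to 3′ for 250 bases up to the first listed transcript start, from RefSeq on build GRCm38.p6. Letters of the E-box CANNTG are in capitals. The Dgka stretch is chr10:128745085-128745334 on the minus strand, that of Txk chr5:72752778-72753027 (minus), that of Cd5 chr19:10738975-10739224 (minus) and that of Themis chr10:28668110-28668359 (plus). RefSeq lists 4 starts for Dgka, 2 each for Txk and Themis and 1 for Cd5, and the arrays do not tell which was used.
Dgka: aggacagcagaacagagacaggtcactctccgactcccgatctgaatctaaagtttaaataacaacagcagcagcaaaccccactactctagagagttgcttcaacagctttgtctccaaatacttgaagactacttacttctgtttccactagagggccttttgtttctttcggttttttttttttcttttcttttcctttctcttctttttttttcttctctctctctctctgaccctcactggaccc
Txk: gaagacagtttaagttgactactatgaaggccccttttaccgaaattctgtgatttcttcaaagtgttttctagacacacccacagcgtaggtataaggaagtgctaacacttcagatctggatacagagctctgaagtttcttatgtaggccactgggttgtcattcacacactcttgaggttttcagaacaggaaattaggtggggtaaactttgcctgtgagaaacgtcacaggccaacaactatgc
Cd5: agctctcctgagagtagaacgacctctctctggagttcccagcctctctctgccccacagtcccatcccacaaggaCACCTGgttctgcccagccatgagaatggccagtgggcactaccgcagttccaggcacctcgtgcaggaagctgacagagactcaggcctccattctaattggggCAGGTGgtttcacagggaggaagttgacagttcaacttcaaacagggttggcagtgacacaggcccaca
Themis: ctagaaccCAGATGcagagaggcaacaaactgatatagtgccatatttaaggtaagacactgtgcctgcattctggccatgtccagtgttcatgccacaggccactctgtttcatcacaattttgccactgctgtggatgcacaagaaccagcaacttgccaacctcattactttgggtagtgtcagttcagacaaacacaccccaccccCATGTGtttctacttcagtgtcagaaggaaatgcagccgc
E-boxes of this general form occurred in Cd5 and Themis, with 2 each, and in neither Dgka nor Txk. Of the 32 measured members with a listed promoter, 20 (62.5%) held CANNTG, as did 66% of 27025 promoters of the same length. The narrower MYC-MAX form CACGTG, itself a CANNTG, was in 1 member, Lat, and in none of the 4, against 6.05% of all promoters. Matches for GGAAAA, as in NFAT sites, were found in 18.8% of members, Dgka among them, against 20.6% of all, for TGTGGT (RUNX) in 6.25% against 14.2%, and for TGTTTAC (FOXO) in 9.38% against 3.09%. Both strands were searched, and these matches describe letters only.

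Of the receptor chains, the CD3 transcripts differed little and the zeta chain transcript was lower without passing the test. Cd3d measured 7962, 8814 and 9050 on negative and 6672, 8436 and 8545 on positive arrays, and Cd3g 7288, 8734 and 8673 against 6679, 8555 and 8216. In both genes the groups overlapped, with array 1 the lowest of each group. Cd3e gave 13390, 11704 and 12229 against 9626, 10247 and 10940, a separated but small difference of -0.28 with an SE of 0.13 (adjusted p = 0.272). The 3 genes lie side by side in the genome, and their log2 differences were -0.13, -0.08 and -0.28; that of Cd3g turned to 0.031 without positive array 1. Cd247, whose chain carries the most phosphorylation motifs of the complex, measured 2028, 2045 and 1112 on negative and 678, 849 and 719 on positive arrays. Its difference was -1.16 with an SE of 0.27 (adjusted p = 0.0625), with negative array 3 between the other negative arrays and the positive ones. Without that array it was -1.45 (adjusted p = 0.0235). Its other probe sets had differences of -1.497 (adjusted p = 0.0272 among the 34945 named probe sets), -1.20 and -0.31.

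Neither costimulatory receptor gene passed the test. Cd28, which adds a second signal through phosphoinositide 3-kinase, measured 5526, 5517 and 5820 on negative and 3860, 3856 and 4605 on positive arrays. The groups were separated, by a log2 difference of -0.46 (SE 0.13, adjusted p = 0.102). Its other probe set gave 2394, 2192 and 2298 against 969, 904 and 1065, a difference of -1.23 that passed (adjusted p = 0.0122 among named probe sets). Cd2, an adhesion receptor that aids contact with the presenting cell, gave 5937, 4929 and 5617 against 6869, 5955 and 5067. It overlapped between the groups, and its difference of 0.11 turned to -0.039 when arrays were centred.

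Among the 4 measured tyrosine kinase genes Txk fell and the others were not called. Tec, the founding member of the family to which Txk belongs, gave 300, 230 and 81.2 on negative and 69.5, 59.9 and 38.1 on positive arrays. The groups did not overlap, yet negative array 3 sat close to positive array 1. The difference was -1.71 with an SE of 0.52 (adjusted p = 0.117); it passed with the array number as a block (adjusted p = 0.0356) and without negative array 3, at -2.28 (adjusted p = 0.0317). Zap70 measured 1084, 898 and 947 against 843, 1022 and 945. These values interleave, its difference was -0.06 with an SE of 0.14, and the sign turned without negative array 1, without positive array 1 and in its other probe sets. Fyn gave 2632, 2961 and 6354 against 1532, 3137 and 4762, so the arrays numbered 3 were highest and those numbered 1 lowest in both groups. The difference of -0.37 had an SE of 0.51 (adjusted p = 0.757) and became 0.074 without positive array 1 and 0.024 without negative array 3.

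**Figure D2:**
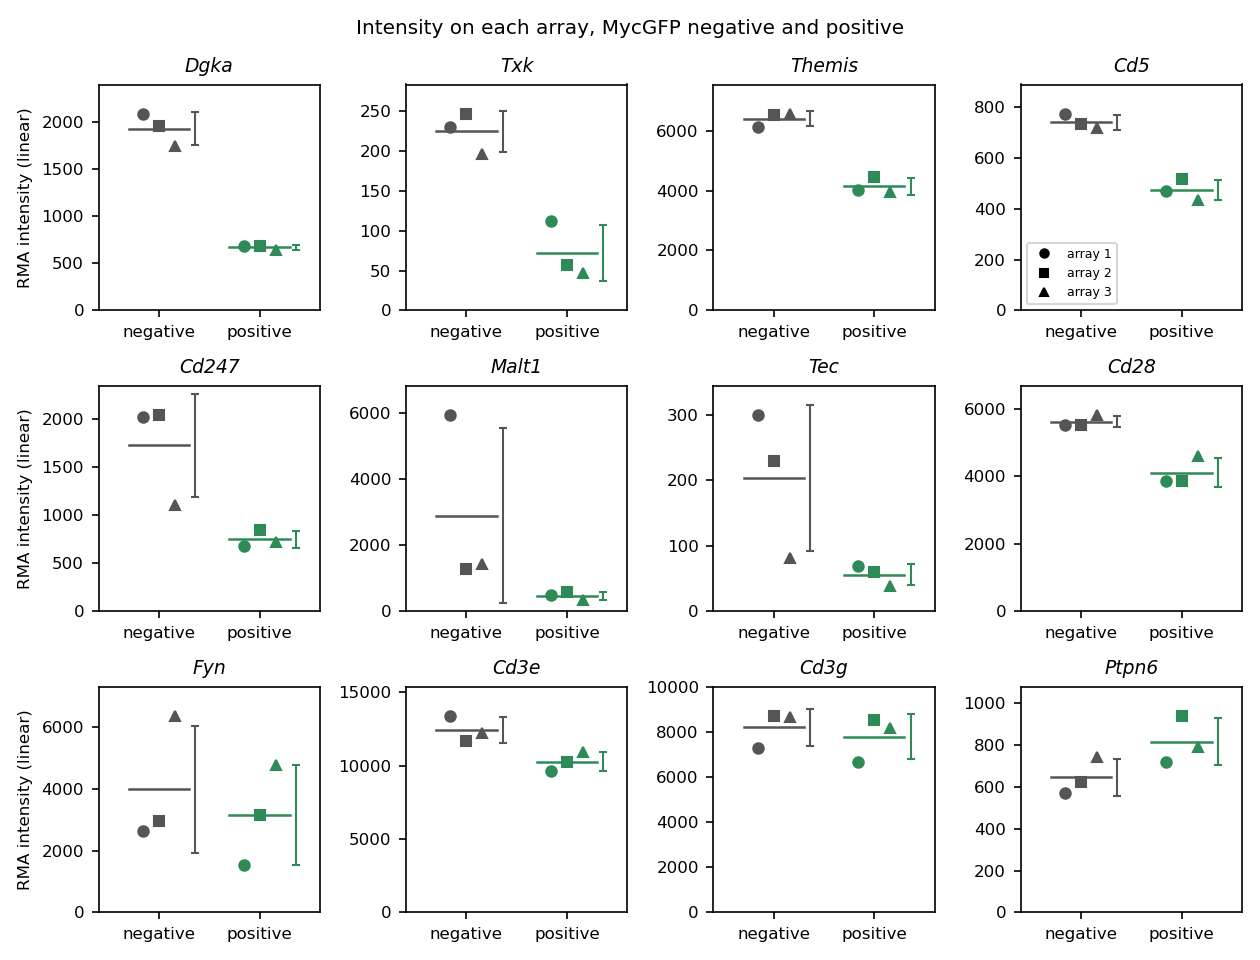
RMA intensity on a linear axis from 0 for 12 members on each array, MycGFP negative on the left of each panel and positive on the right; circles, squares and triangles are arrays 1, 2 and 3, horizontal lines are means and the bars at their side are SDs (n = 3). Dgka, Txk, Themis and Cd5 show separated groups, as do Cd247, Malt1, Tec, Cd28 and Cd3e, which were not called. Fyn, Cd3g and Ptpn6 overlap. Malt1 is far higher on negative array 1, at 5929, than on the other negative arrays, and Fyn differs more by array number than by group.

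None of the 6 genes for adaptors and for the enzymes they gather passed the test, and all 6 had differences below 0. Lcp2, the SLP76 scaffold, measured 1793, 1889 and 1389 on negative and 1071, 1245 and 1048 on positive arrays, a difference of -0.58 with an SE of 0.17 (adjusted p = 0.103). Nck1, which links the receptor to actin, gave 889, 625 and 539 against 425, 387 and 380 (-0.75, SE 0.21, adjusted p = 0.0943), but its other probe sets were at -0.0067 and 0.36, and the average over its probe sets was -0.13 (adjusted p = 0.740). Plcg1, the phospholipase that splits a membrane lipid into diacylglycerol and inositol trisphosphate, gave 10414, 10282 and 8962 against 7019, 8164 and 7804. All 3 genes had separated groups; the Plcg1 difference was -0.37 with an SE of 0.13 (adjusted p = 0.176). Lat, the membrane scaffold on which they assemble, was 4734, 4715 and 4147 against 3731, 3899 and 4019, the smallest difference of the 6 at -0.22 (adjusted p = 0.375). The groups overlapped for Vav1, the exchange factor for RAC, and Grap2, which joins SLP76 to LAT, with differences of -0.34 and -0.29. Grap2 was the dimmest probe set of the 6, with 161, 185 and 102 against 169, 107 and 91.4. Another Vav1 probe set, at 33.02 to 133 on the 6 arrays, had a difference of 0.61.

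The effectors of diacylglycerol and the BCL10-MALT1 module, which carries the signal to NF-kappaB, were likewise lower without passing. Malt1, the paracaspase of that module, had the lowest log2 difference of all members, -2.29 with an SE of 0.61 (adjusted p = 0.0878). Its intensity was 5929, 1287 and 1428 on negative and 493, 573 and 333 on positive arrays, so negative array 1 lay far above the other negative ones. Without that array the difference shrank to -1.58 but passed (adjusted p = 0.0387). Other Malt1 probe sets had differences of -1.15 and 0.07, and neither passed. Prkcq, protein kinase C theta, gave 2036, 1631 and 2379 against 1170, 1237 and 1449 (-0.64, SE 0.18, adjusted p = 0.103), with no overlap. Rasgrp1, which activates RAS, gave 6445, 6459 and 4539 against 4661, 5055 and 3354. Array 3 was the lowest of both groups, which overlapped (-0.42, adjusted p = 0.361). Its probe set with 288, 368 and 216 against 137, 130 and 90.3 fell, at -1.28 (adjusted p = 0.0413 among named probe sets). Bcl10 was 5400, 7575 and 5358 against 4942, 4514 and 4904 (-0.33, adjusted p = 0.343).

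The 3 NFAT factor genes, the calcium-dependent end of the pathway, overlapped between the groups. Nfatc1 measured 875, 1139 and 1235 on negative and 771, 1329 and 1196 on positive arrays, with a difference that rounds to 0 (SE 0.25). Nfatc2 gave 405, 736 and 455 against 115, 393 and 492, its lowest value being on positive array 1. Nfatc3 was 6322, 5917 and 4125 against 4079, 4218 and 4057, so only negative array 3 reached the positive range. The differences of Nfatc2 and Nfatc3 were -0.87 and -0.38 (adjusted p = 0.466 and 0.314).

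Of the 12 inhibitory members 2 fell, Dgka and Cd5, and 4 had differences above 0. Those that restrain the Src family kinases or undo phosphorylation showed no call. Csk, which phosphorylates the inhibitory tyrosine of LCK, measured 2425, 2145 and 2601 on negative and 2958, 2424 and 2268 on positive arrays. Pag1, the membrane anchor of CSK, gave 2743, 3455 and 3083 against 2894, 3716 and 2740. Both overlapped, at differences of 0.09 and 0.004 that turned below 0 when arrays were centred. Ptpn6, the phosphatase SHP1, gave 568, 622 and 743 against 718, 938 and 788, a difference of 0.34 with an SE of 0.17 (adjusted p = 0.318), and its groups overlapped through negative array 3. Ptpn22, a phosphatase that acts on LCK and ZAP70, was 3113, 3114 and 6192 against 2677, 3368 and 4190 (-0.22, SE 0.32), highest on array 3 of each group; without negative array 3 the difference was 0.11.

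The ubiquitin ligases and the adaptors that lead the receptor to degradation were mixed. Cbl, a ligase for ZAP70 and the receptor chains, gave 5889, 7407 and 6304 on negative and 2094, 4561 and 4898 on positive arrays. The groups were separated, with positive array 1 far below the others (-0.85, SE 0.34, adjusted p = 0.218). Cblb, whose loss lets T cells respond without CD28, was 1475, 1885 and 3224 against 1226, 2281 and 2574, and its sign turned without negative array 3 (0.21) or positive array 1 (0.22). Sla and Sla2, SRC-like adaptors that promote removal of the receptor, were both separated at modest size. Sla measured 10840, 11842 and 10209 against 8982, 8910 and 8722 (-0.30, SE 0.12, adjusted p = 0.212), and Sla2 2007, 2068 and 1965 against 1714, 1444 and 1808 (-0.29, adjusted p = 0.287). A second Sla2 probe set with 569, 482 and 432 against 303, 274 and 239 fell (-0.86, adjusted p = 0.0377 among named probe sets). Ubash3a, a suppressor of receptor signalling, had the highest difference of all members, 0.73 with an SE of 0.35 (adjusted p = 0.291). It gave 145, 180 and 122 against 410, 203 and 176, so positive array 1 stood alone. Its other probe set pointed the other way, with 133, 211 and 151 against 49.2, 81.6 and 85.5 and a difference of -1.21 (adjusted p = 0.0585), so no direction can be given for this gene.

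Besides Themis, the members described in both directions were lower without a call. Ptprc, the CD45 phosphatase that can both activate and silence LCK, measured 6192, 5505 and 4076 on negative and 4563, 4527 and 4213 on positive arrays (-0.22, adjusted p = 0.568). Another Ptprc probe set, with 946, 1676 and 1070 against 238, 568 and 331, fell (-1.75, adjusted p = 0.0465 among named probe sets). Cd6, a relative of CD5, gave 654, 776 and 697 against 650, 421 and 504 and was separated by a narrow margin (-0.45, adjusted p = 0.239). Trat1, an adaptor bound to the receptor itself, gave 2941, 2238 and 2374 against 2476, 1554 and 1987 and overlapped (-0.34, adjusted p = 0.432).

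**Figure D3:**
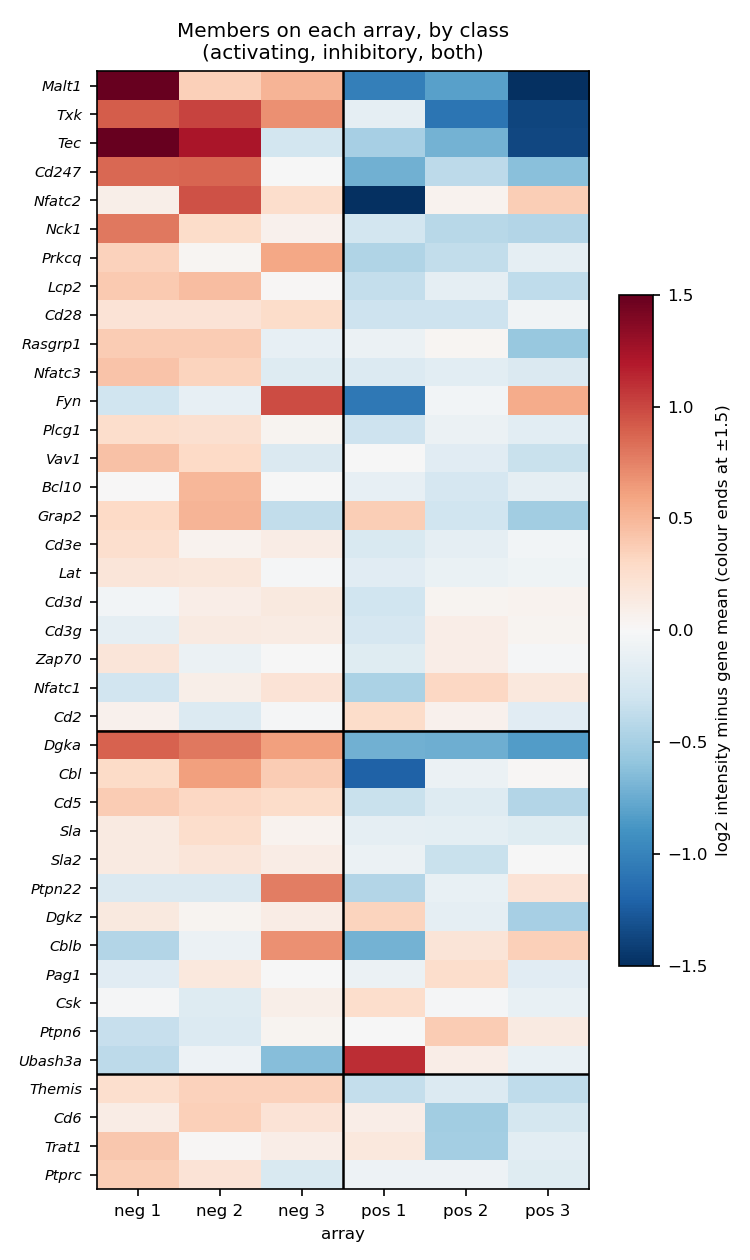
Log2 intensity of each of the 39 members (rows, ordered by difference within class) on each of the 6 arrays (columns), as the deviation from the gene's mean over arrays; red is higher, blue lower, and the colour ends at 1.5. Activating members are mostly red on the negative and blue on the positive arrays, with fewer such rows among inhibitory members, and Fyn, Ptpn22 and Cblb follow the array number.

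Set side by side, 22 of 23 activating members and 8 of 12 inhibitory members had differences below 0. In the activating class 1 gene fell and 12 had separated groups, all lower. In the inhibitory class 2 fell and 5 were separated, all lower. Of all genes, 48.4% had differences below 0, 1.51% fell and 11.2% were separated with positive values lower. Of genes above the array median on all arrays, these shares were 42.1%, 2.57% and 13.7%. The median log2 differences of the activating and inhibitory classes were -0.37 and -0.21. The interquartile ranges ran from -0.70 to -0.25 and from -0.39 to 0.03, so the classes overlapped broadly, and the difference between them was not tested. Counting Themis, Ptprc and Trat1 as activating and Cd6 as inhibitory gave -0.37 and -0.22. On single arrays, as deviations from each gene's mean over arrays, the median of the activating class was 0.26, 0.28 and 0.05 on negative and -0.28, -0.14 and -0.15 on positive arrays. The inhibitory class was at 0.06, 0.10 and 0.11 against -0.11, -0.10 and -0.11, and all genes stayed between -0.07 and 0.04. Without negative array 3 the inhibitory median was -0.091 and the activating one -0.51, a wider gap than with all arrays; without negative array 1 they were -0.30 and -0.34.

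**Figure D4:**
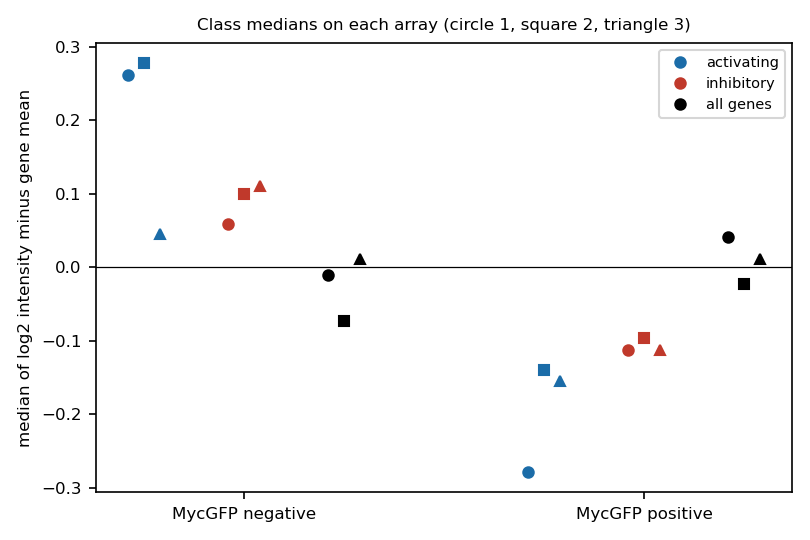
Median over the 23 activating members, the 12 inhibitory members and all 18193 genes of the log2 intensity minus the gene's mean over arrays (vertical axis), for each array; circles, squares and triangles are arrays 1, 2 and 3. Both classes lie above 0 on the 3 negative and below 0 on the 3 positive arrays, and negative array 3 is the lowest negative point of the activating class at 0.05.

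For some members, such as Fyn, variation between array numbers was as large as that between sorts. After removal of the group means, the members' deviations on arrays of the same number correlated with r = 0.477, 0.006 and 0.627 for numbers 1, 2 and 3 (39 genes, which are not independent replicates, and deviations within a group sum to 0). Fyn, Ptpn22, Cblb, Cd3d, Cd28 and Prkcq were among the members highest on array 3 of each group. Of these, Cd28 and Prkcq nonetheless had separated groups. Rasgrp1, Grap2, Vav1, Tec, Txk, Dgka and Cd5 were among the members lowest on array 3 of each group. Here Tec, Txk, Dgka and Cd5 had separated groups all the same. How many of all genes show such an order of arrays was not counted. No label ties a number to one leukaemia.

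The remaining probe sets of the members gave a further view, since 26 members had more than 1 and 90 probe sets were measured for the 39. Of these, 11 fell and none rose (limma, adjusted among all 34945 with a gene name), or 12.2%, where 2.16% of all named probe sets fell and 4.76% rose. The 11 came from 9 genes: the 4 called ones, with 3 probe sets of Themis, and Cd247, Cd28, Rasgrp1, Sla2 and Ptprc, in which the brightest probe set had not passed. A log2 difference of -1 or lower was found in 17 of the 90 (18.9%), against 4.87% of all named probe sets. The Themis probe set with the lowest difference gave 1204, 2254 and 2891 on negative and 261, 331 and 248 on positive arrays, a difference of -2.84 (adjusted p = 0.0138). In 9 members some other probe set had the opposite sign to the one used, namely Zap70, Nck1, Vav1, Malt1, Nfatc1, Nfatc2, Pag1, Cblb and Ubash3a. Those of Nfatc2 (mean intensity 24.6) and Pag1 (37.0 and 37.2) were near the array median. For Zap70 they were at 33.3 and 821. The part of a transcript that each probe set matches is not known here, and probe sets of 1 gene are not independent. When the log2 values of all probe sets of a gene were averaged, 10 members fell, namely the same 4 with Cd247, Cd28, Malt1, Plcg1, Ptprc and Sla2, against 2.16% of all genes. Averaging took Nfatc2 from -0.87 to -0.26, Nfatc3 from -0.38 to -0.81, Sla from -0.30 to -0.77, Cblb from -0.11 to -0.30 and Plcg1 from -0.37 to -0.59. The other Nfatc2 probe sets were dim, with mean intensities of 19.8 to 54, against 433 for the one used.

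**Figure D5:**
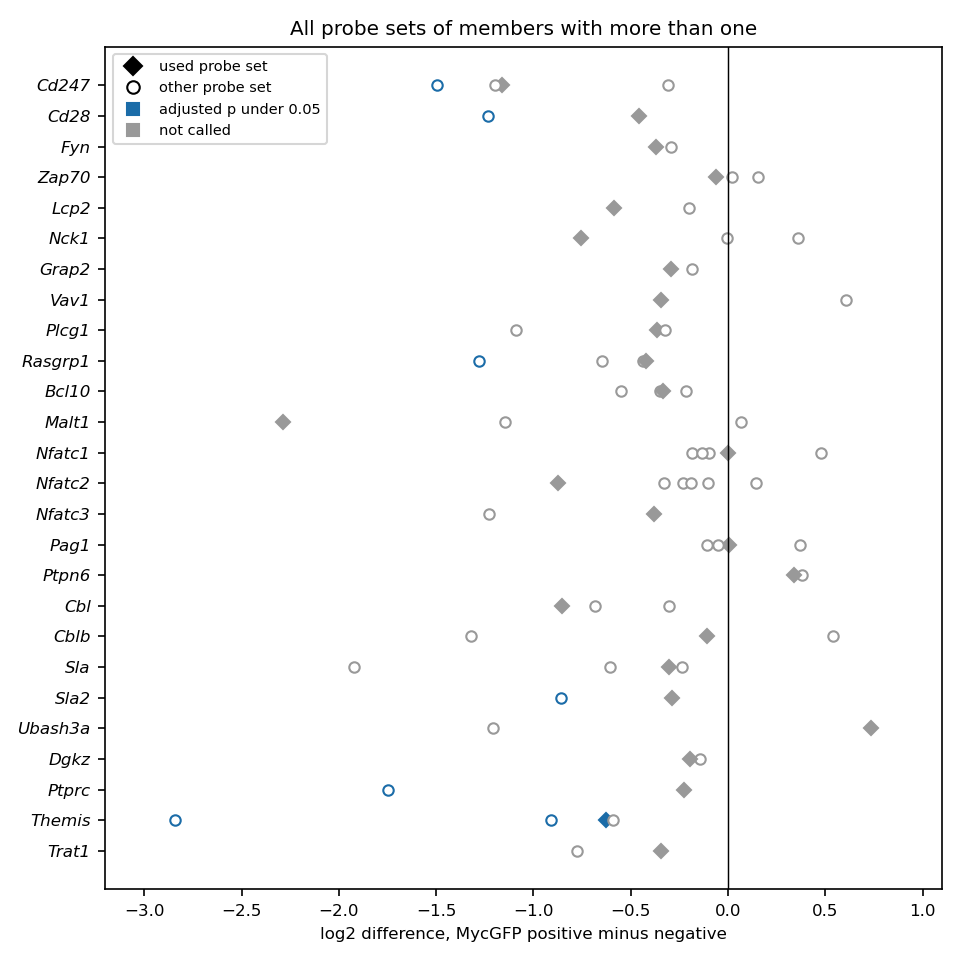
Log2 difference between MycGFP positive and negative cells (horizontal axis) for every probe set of the 26 members with more than 1; diamonds are the probe sets used for the gene and open circles the others, and blue marks an adjusted p under 0.05 among named probe sets. All blue symbols lie left of 0, the lowest being a Themis probe set at -2.84, and the Ubash3a symbols lie on opposite sides.

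Of 58 other measured genes of the pathway, from a list of 70, 1 rose and 3 fell, where 4.62% of all genes rose and 1.51% fell. Differences below 0 were found in 36, against 48.4% of all genes, with a median of -0.17 against 0.01. Ptpn2, a phosphatase that acts on FYN and LCK as well as on JAK kinases, rose 1.99-fold. It measured 680, 726 and 657 on negative and 1416, 1362 and 1334 on positive arrays (limma, adjusted p = 0.0152), with no overlap. Dgkd, a further diacylglycerol kinase, fell 1.81-fold, with 1171, 1069 and 964 against 519, 626 and 631 (adjusted p = 0.0316, or 0.0584 with the block). Rhoh, a GTPase without catalytic activity that aids ZAP70 recruitment, fell 1.66-fold, with 3432, 2853 and 2637 against 1711, 1732 and 1916 (adjusted p = 0.0454, or 0.0750 with the block). The co-receptor gene Cd4, whose product brings LCK to the receptor, fell 7.26-fold, with 5120, 5966 and 3208 against 871, 406 and 723 (adjusted p = 0.0170). Its partner in double positive cells, Cd8b1, gave 8009, 7360 and 5715 against 3931, 1554 and 2028 and missed the threshold (adjusted p = 0.0579), though not with the block (adjusted p = 0.0454). Cd8a, the other chain of that co-receptor, gave 7039, 6652 and 3901 against 6658, 3514 and 1992, with overlap and a difference of -0.66 (adjusted p = 0.509).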

How the data were processed

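RNA from sorted cells was hybridised to mouse genome arrays with 45101 probe sets, 3 arrays a group, with groups taken from the sample titles. Per the labels' protocols, the starting 5 ng of total RNA went through Ovation amplification, which can add noise to dim transcripts. The deposited values are linear intensities that the authors summarised with RMA, per the submitters' processing notes; the version and genome build are not given in the sources used here. Because RMA brings all arrays to a common distribution, a shift shared by most genes would be removed. Detection calls were not used here.

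Probe sets with 1 gene symbol in the platform annotation (34945, without control probe sets) were used, symbols being updated by Entrez identifier for 34741, and each gene was represented by its brightest probe set. The groups' log2 intensities entered linear models in limma 3.58.1 under R 4.3.3 (two-sided moderated test, 4 residual and 2.17 prior degrees of freedom), with Benjamini-Hochberg adjustment over 18193 genes and a threshold of 0.05; a gene "fell", "rose" or was "called" at that threshold. The code of the fit was checked on simulated data with independent noise on each array. That simulation had no variation shared by equally numbered arrays, so it does not bear on the calls made here. Members, classes and lists were chosen with earlier results of these data known. Values were given on all arrays for members that were called or had an unadjusted p under 0.05 and for the highest and lowest of each role group by difference and by mean intensity, and for called genes of the pathway list; the remaining values, and Cd8b1, Cd8a, Gzma, Klrd1 and Cd7, were chosen after they were seen. Alternatives were the array number as a block, each array left out, other probe set rules, centring, a filter on dim genes, an offset of 32, a trended and robust variance and array weights.

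The array numbers were checked for pairing. Deviations from the group means, over all genes, had r = 0.38, 0.209 and 0.388 for equally numbered arrays. For unequally numbered arrays r was -0.32 to -0.0319, which is not independent of the former, since deviations within a group sum to 0. The numbers were therefore taken to pair the arrays, as an assumption from the data, since no label says so; the fit without the block remained the main one.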

Additional observations from a re-analysis of the deposited data

How the results depend on the processing

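Leaving out 1 array at a time gave 0 to 1038 called genes, against 1115, and 0 to 3 members that fell, against 4; the median log2 difference ranged from -0.51 to -0.33 over activating, -0.30 to -0.091 over inhibitory and -0.42 to -0.31 over all members. With both arrays numbered 2 left out, chosen after seeing the data for their myeloid transcripts, limma called 0 genes and 0 members, with 7 members lower at an unadjusted p under 0.05, as were 759 of all genes, with 1728 higher. With the array number as a block 3 members fell, Dgka, Txk and Tec, and 1401 genes were called; beyond the losses of Cd5 and Themis and the gain of Tec it changed no call of a member. Averaging probe sets gave 10 members that fell and an inhibitory median of -0.27 and took Nck1 from -0.75 to -0.13, and leaving out shared probe sets an inhibitory median of -0.18. Centred arrays gave medians of -0.52, -0.36 and -0.49 for activating, inhibitory and all members, whose shift follows that of all genes. Of the 39 members 27 kept their direction in all alternatives run. Among the others, none of them called, single arrays left out gave -0.16 to 0.031 for Cd3g, -0.74 to 0.074 for Fyn, -0.13 to 0.018 for Zap70, -0.16 to 0.23 for Nfatc1, -0.023 to 0.17 for Csk, -0.13 to 0.090 for Pag1, -0.39 to 0.11 for Ptpn22, -0.35 to 0.22 for Cblb and -0.41 to 0.0055 for Dgkz. Centring gave -0.039 for Cd2, -0.062 for Csk and -0.15 for Pag1. Averaged probe sets gave 0.039 for Zap70, 0.13 for Vav1, 0.012 for Nfatc1 and -0.24 for Ubash3a; without shared probe sets Zap70 was 0.16 and Vav1 0.61. Array weights gave 0.11 for Nfatc1 and 0.085 for Cblb, and Pag1 was -0.047 without both arrays numbered 2. The cause of these changes was not tested. The number of arrays limits the precision, and no deposited detection calls bound the dimmer values of Txk and Tec.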
